A study of Mus musculus with 3 samples.

Results

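The Eph receptor genes Epha2 and Epha4 and the ephrin gene Efnb2 were examined for TBX1 ChIP-seq peaks in whole mouse embryos at embryonic day 9.5. The genes were chosen by earlier results of these data, in which a peak next to Epha2 ranked among the strongest, and every peak within 500 kb of each gene body was then taken. Peaks of different replicates that shared at least 1 bp were joined into regions. The 3 loci held 5 of the 711 regions of the series, 11 of its 1088 peaks and 5 of its 255 consensus regions, a list that the authors made of peaks found in more than 1 replicate. Not every consensus region was shared in the deposited lists, since 35 of the 255 overlapped a peak of a single list and 3 overlapped none, so the lists behind the consensus may not be the deposited ones. There was 1 condition with 3 biological replicates of 20 embryos each. All embryos were double homozygous for Tbx1 3'-Avi, an Avi peptide added to the endogenous TBX1 protein, and for BirA, a biotin ligase at the ROSA26 locus (allele Gt(ROSA)26Sortm1.1(BirA)Mejr, with FVB and 129P2 named), on a strain background given as Mix. BirA attaches biotin to the Avi peptide, and streptavidin beads then capture TBX1 with the DNA crosslinked to it. Samples with BirA alone were not analysed here, and a peak of a whole embryo cannot be assigned to a tissue. Because there was no second condition, the values below are a description of the peaks with no test.

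Eph receptors are receptor tyrosine kinases, and their ephrin ligands sit on the membrane of neighbouring cells, so that signals pass at cell contacts and in both directions. The A-type ephrins are held by a lipid anchor and the B-type ephrins cross the membrane. The system is known for repulsion between cells, for the guidance of axons and neural crest cells, for segmentation, and for the separation of arteries from veins. Epha2 mostly binds A-type ephrins, Epha4 binds ephrins of both types, and Efnb2 encodes a B-type ephrin that marks arterial endothelium and binds Ephb4 on veins. TBX1 is a T-box transcription factor of the pharyngeal apparatus, into which neural crest cells migrate.

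The sequences under the peaks are shown first, because the sites differed in what their summits contain. Each is the upper strand of NCBIM37, the assembly also called mm9. The Epha2 sequence spans the summits of all 3 replicates with 85 bp on each side (chr4:140849013-140849308), and its capitals mark 14 copies of the 4-letter word CATC, read on both strands. The others are the 201 bp around the summit of the highest ranked peak, at chr1:77137564-77137764 for Epha4 and at chr8:8328359-8328559, chr8:8596287-8596487 and chr8:8947822-8948022 for Efnb2. Their capitals mark 11 bases with the fewest mismatches to a joined T-box and MEIS-type word, which is GGTG, any base, then TGACAG. Other stretches of a window can tie with the marked bases. This word is shown because it was more frequent in the regions of the series than beside them, as given below.
Epha2, 7.7 kb upstream: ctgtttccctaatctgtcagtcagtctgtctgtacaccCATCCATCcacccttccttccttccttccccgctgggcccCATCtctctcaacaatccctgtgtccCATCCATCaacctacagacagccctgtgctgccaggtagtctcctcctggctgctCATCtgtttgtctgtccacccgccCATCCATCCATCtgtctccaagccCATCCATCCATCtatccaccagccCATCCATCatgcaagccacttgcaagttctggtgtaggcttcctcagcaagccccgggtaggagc
Epha4, 225.9 kb downstream: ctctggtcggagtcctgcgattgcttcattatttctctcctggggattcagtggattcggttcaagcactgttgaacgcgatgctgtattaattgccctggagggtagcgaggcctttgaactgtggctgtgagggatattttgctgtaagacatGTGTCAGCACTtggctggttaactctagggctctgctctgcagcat
Efnb2, 288.9 kb downstream: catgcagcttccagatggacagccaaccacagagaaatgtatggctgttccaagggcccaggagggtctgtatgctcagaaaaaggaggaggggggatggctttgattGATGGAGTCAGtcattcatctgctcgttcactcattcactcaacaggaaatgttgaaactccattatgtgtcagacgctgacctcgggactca
Efnb2, 20.9 kb downstream: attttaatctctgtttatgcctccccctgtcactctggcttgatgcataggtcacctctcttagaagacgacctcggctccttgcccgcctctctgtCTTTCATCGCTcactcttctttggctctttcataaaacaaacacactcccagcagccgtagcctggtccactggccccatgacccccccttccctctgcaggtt
Efnb2, 286.6 kb upstream: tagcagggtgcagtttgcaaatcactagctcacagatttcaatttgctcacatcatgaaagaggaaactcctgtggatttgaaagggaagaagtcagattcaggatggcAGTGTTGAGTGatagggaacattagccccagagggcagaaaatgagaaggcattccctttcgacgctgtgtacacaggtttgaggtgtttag

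Epha2 had a single region, and it ranked first of the 279 regions of the series with peaks in 2 or more lists. Epha2 (ENSMUSG00000006445.3) lies on the plus strand of chromosome 4 from 140857155 to 140885299. The region (140848795 to 140849443) lay 7.7 kb upstream of its start site and overlapped no annotated gene. Its fold enrichment, the ratio of ChIP over background at the summit as deposited, was 18.2 in replicate 1, 28.8 in replicate 2 and 15.9 in replicate 3. The −log10 q-value was 41.0, 88.1 and 49.3, respectively. By fold enrichment the peak was the second of 146 peaks in replicate 1, the first of 646 in replicate 2 and rank 5 of 296 in replicate 3. By q-value it ranked 2, 1 and 1. Replicate 2 thus had the highest value, and replicates 1 and 3 lay closer to each other. The highest fold enrichment of any peak was 23.6 in replicate 1 and 18.6 in replicate 3, so that other peaks exceeded the Epha2 peak in these lists. In replicate 2 the next peak had 23.1.

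**Figure D1:**
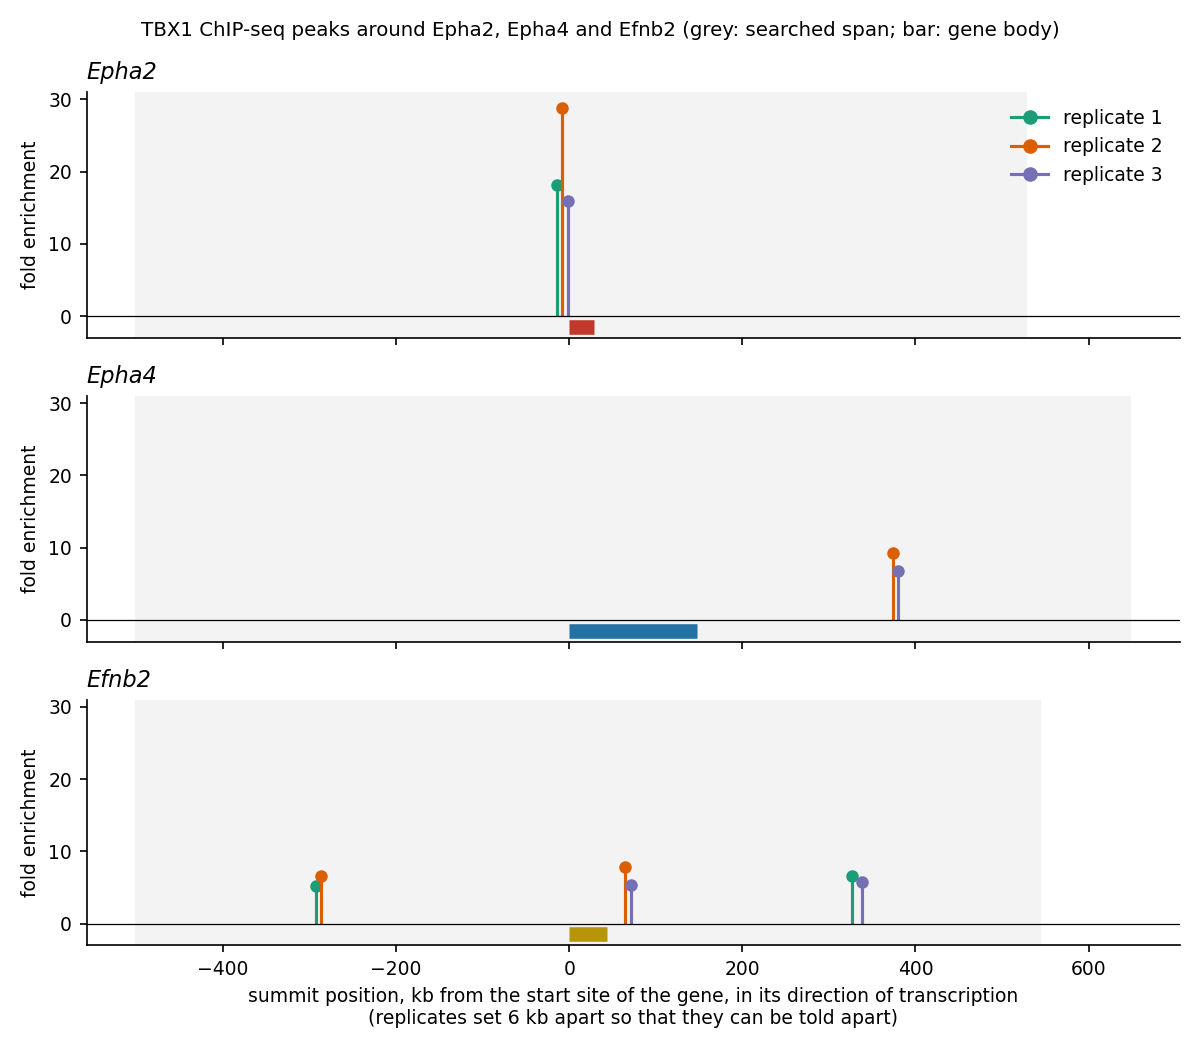
Fold enrichment (vertical axis) of every peak around Epha2, Epha4 and Efnb2 against the position of its summit in kb from the start site (horizontal axis), with 1 colour for each replicate and a bar for the gene body. The 3 peaks upstream of Epha2 reach 15.9 to 28.8, and the 8 peaks at the other loci lie between 5.16 and 9.24.

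The percentile of a peak is the share of the other peaks of its list with a lower value, with a tied peak given the weight 0.5, and its mean was taken over the lists with a peak. The mean percentile of the Epha2 region was 99.3, with 99.3, 100 and 98.6 in replicates 1, 2 and 3. It ranked first of the 93 regions found in all 3 lists, which make up 13.1% of all regions. These ranks belong to the rule by which the gene was chosen. The next regions were within Chd1 (mean percentile 98.0), within Laptm5 (97.8), 246.2 kb from Trps1 (97.3) and within Plekha4 (97.0). Within each list, the Epha2 peak was also wide. It measured 626, 645 and 609 bp in replicates 1, 2 and 3, where the median peak was 213, 215.5 and 213 bp. These widths ranked 4 of 146, 7 of 646 and 4 of 296.

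The Epha2 peaks covered nearly the same stretch in the 3 replicates, but their summits did not coincide. The summits were at 140849098, 140849202 and 140849223, a spread of 125 bp. Among the 93 regions in all 3 lists the median spread was 46 bp, and it was over 100 bp in 11 of them. The deposited consensus region (140848767 to 140849429) was 663 bp wide and began before the start of each of the 3 peaks. No protein-coding gene lay between the region and Epha2. The neighbour on the other side was Arhgef19, and it ended 35.3 kb from the region with its start site at 53.3 kb. Gm13056, a noncoding transcript, lay 13.1 kb away.

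**Figure D2:**
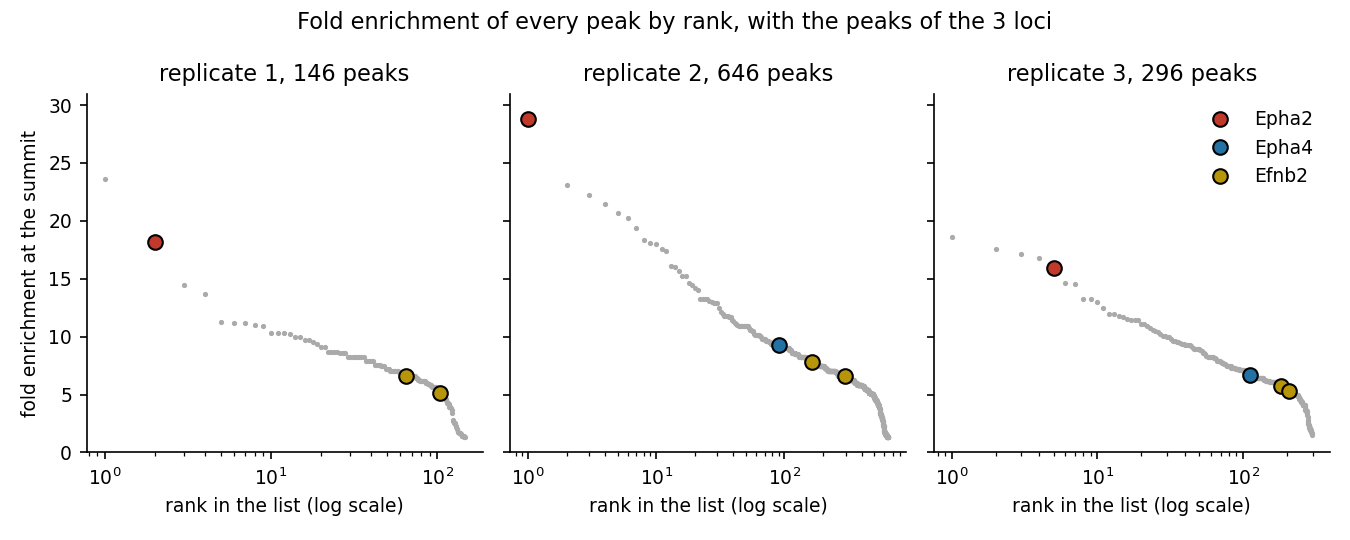
Fold enrichment (vertical axis) of every peak against its rank in its own list (horizontal axis, log scale), with the peaks of the 3 loci in colour. The Epha2 peaks stand at ranks 2, 1 and 5, and the Epha4 and Efnb2 peaks lie between ranks 65 and 299 on the flat part of the curves.

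Epha4 had a single region, far from the gene and present in 2 of the 3 lists. Epha4 (ENSMUSG00000026235.7) lies on the minus strand of chromosome 1 from 77363760 to 77511663. The region (77137554 to 77137810) was 225.9 kb downstream of the gene and 373.9 kb from its start site. Replicate 1 had no peak there, which says only that none was called at the depth and threshold of that list, and the fold enrichment of the others was 9.24 (replicate 2) and 6.73 (replicate 3). The −log10 q-value was 14.3 and 8.12. The peak ranked 90 of 646 and 112 of 296, which are percentiles of 86.0 and 62.4 with a mean of 74.2. The peak thus stood higher within replicate 2 than within replicate 3. Among the 186 regions in exactly 2 lists the mean percentile had a median of 52.3, and the Epha4 region ranked 24. Its neighbours in rank among the 279 regions in 2 or more lists were within Glb1l2 (74.2) and within 9230104L09Rik (73.8).

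The interval around the Epha4 region held few genes. A 5S_rRNA entry of the annotation lay 3.5 kb from it, and no other gene was closer than Epha4. The next protein-coding start site after that of Epha4 belonged to Pax3, a transcription factor of the neural crest and the somites, at 1055.9 kb. On the far side the nearest protein-coding gene was Slc4a3 at 1578.8 kb. The summits of replicates 2 and 3 were 24 bp apart, and the peaks were 257 and 189 bp wide.

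Efnb2 was the only one of the 3 genes with more than 1 region, and each of its 3 regions had a peak in a different pair of lists. Efnb2 (ENSMUSG00000001300.8) lies on the minus strand of chromosome 8 from 8617434 to 8661239. The nearest region (8596150 to 8596489) was 20.9 kb downstream of the gene and 64.8 kb from its start site. Its enrichment was 7.82 in replicate 2 against 5.28 in replicate 3, while replicate 1 lacked a peak. These peaks ranked 163 of 646 and 208 of 296. A second region (8328333 to 8328564) was 288.9 kb downstream, where replicate 1 showed 6.62-fold and replicate 3 5.72-fold enrichment. Its ranks were 65 of 146 and 183 of 296. Replicate 2, the longest list, had no peak at this place.

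The third region of Efnb2 (8947806 to 8948129) lay 286.6 kb upstream of the gene. The enrichment was 5.16-fold in replicate 1 against 6.58-fold in replicate 2, replicate 3 lacked a peak, and the peaks ranked 104 of 146 and 299 of 646. This region was nearer to other genes than to Efnb2. Arglu1, which encodes a protein linked to splicing and nuclear receptors, lay 257.3 kb away, and Fam155a, which encodes a subunit of a sodium leak channel complex, lay 259.1 kb away on the other side. Arglu1 and 4921522P10Rik lie between this region and Efnb2. No protein-coding gene lay between Efnb2 and either downstream region, and the next protein-coding gene beyond them, Gm1840, was 2687.3 kb from the farther one. The start site of 4921522P10Rik was 65.3 kb from the nearest region, next to that of Efnb2 at 64.8 kb. By gene body Efnb2 was the nearer, at 20.9 kb against 65.3 kb.

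The Efnb2 regions ranked close to the middle of the lists or below it. The mean percentile was 51.6 for the nearest region, 45.3 for the region 288.9 kb downstream and 41.2 for the upstream region, against a median of 52.3 among the regions in exactly 2 lists. They ranked 98, 115 and 128 of these 186. In rank, the nearest region stood between regions within Zhx3 (52.1) and 116.3 kb from Ddx1 (50.8). The single percentiles were uneven between replicates, with 73.7 and 29.5 in replicates 2 and 3 at the nearest region, 53.1 and 37.5 in replicates 1 and 3 at the far downstream region, and 28.6 and 53.8 in replicates 1 and 2 at the upstream region. The 3 Efnb2 regions therefore cannot be ordered beyond the spread between replicates. Their summits agreed closely, with a spread of 2, 5 and 8 bp, where the median among regions in exactly 2 lists was 31 bp.

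All 5 regions had a peak in at least 2 lists and overlapped a consensus region, and none of the 11 peaks lay outside the consensus list. Of all regions, 39.2% had a peak in 2 or more lists, and 217 of these 279 regions (77.8%) overlapped a consensus region. By q-value the mean percentiles were lower for the Epha4 region (69.5) and for the Efnb2 regions (44.0, 34.7 and 38.9 in the order above), and that of Epha2 was 99.8. None of the regions overlapped an annotated gene of any type. The farthest region inside the limit was that at 288.9 kb from Efnb2. Just outside it, a peak of replicate 2 alone lay 550.7 kb downstream of Epha2 with a fold enrichment of 5.08. The next regions of Epha4 and Efnb2 were 1855.4 kb and 2466.9 kb away. Having 3 or more consensus regions within 500 kb, as Efnb2 does, was the case for 14 of 22380 protein-coding genes (0.0626%), and Efnb2 was among the genes picked with such values known.

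**Figure D3:**
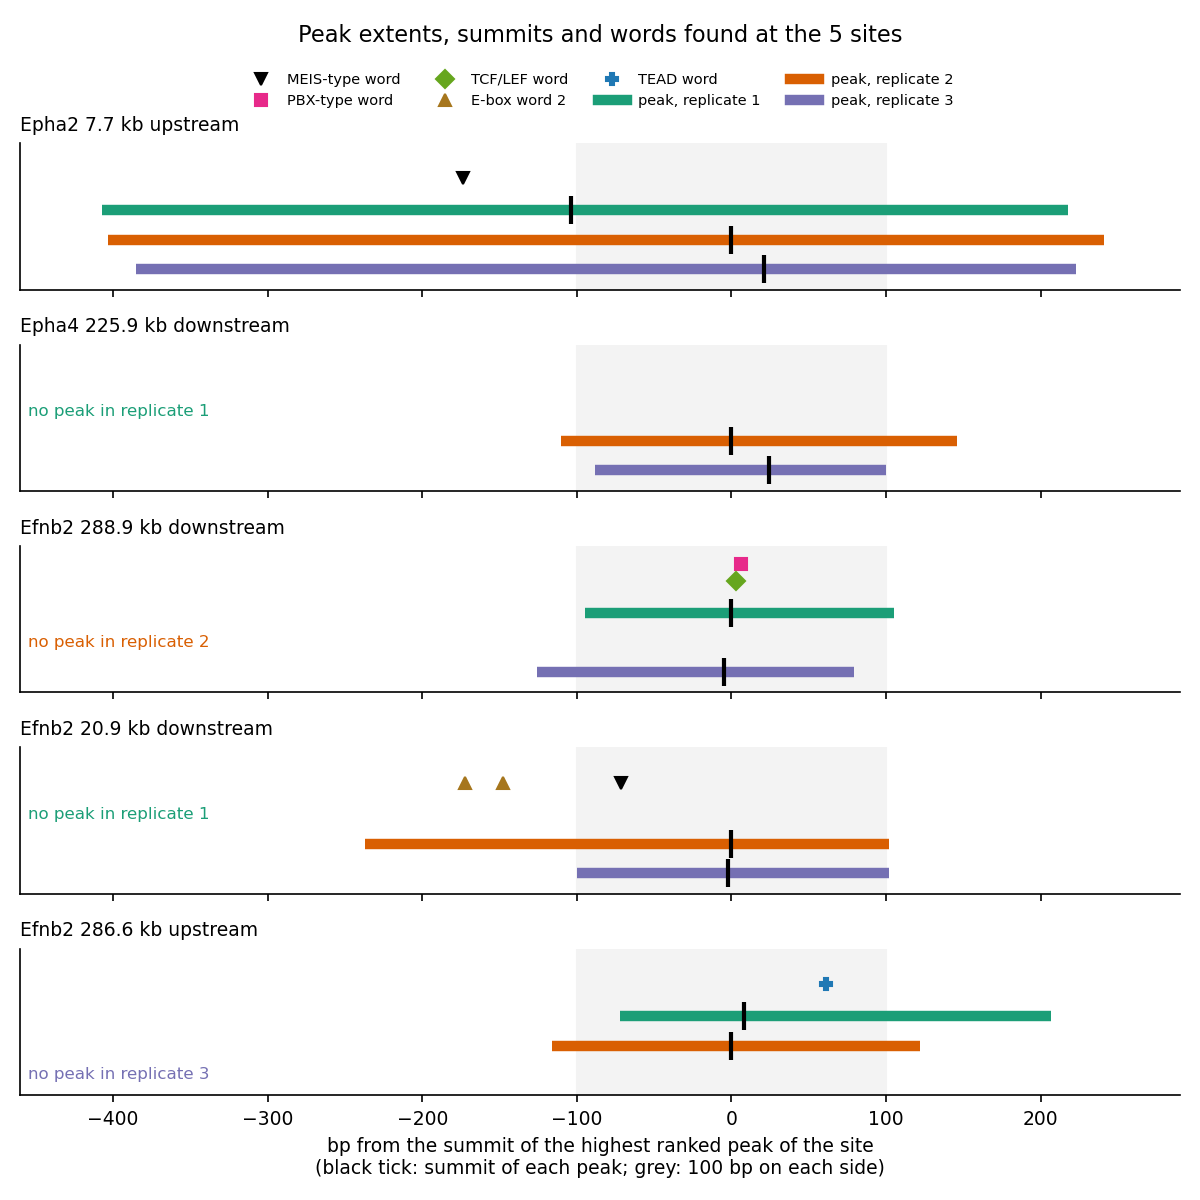
Extent of each peak (coloured bars, 1 row for each replicate), its summit (black tick) and the words found, in bp from the summit of the highest ranked peak of the site. The Epha2 peaks are the widest, with summits over 125 bp, and the Efnb2 summits lie within 8 bp of each other.

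The sites were searched on both strands for 13 short words of DNA-binding proteins within 100 bp of the summit of the highest ranked peak. A match is a description of the letters and not of a bound protein. The MEIS-type word TGACAG, known for the homeodomain proteins MEIS and TGIF, was in 1 of the 5 windows, that of the Efnb2 region 20.9 kb downstream, where it stood 71 bp from the summit of replicate 2 and 69 bp from that of replicate 3. It was in 41.5% of the windows of all 711 regions and in 12.2% of 1409 windows of the same length 5 kb away. The Epha2 region also held this word, at 140849026 to 140849031, but it was 173 bp from the summit of replicate 2 and 194 bp from that of replicate 3. It was 69 bp from the summit of replicate 1. The same Efnb2 region held the E-box word CACCTG at 2 places, 172 and 147 bp from the summit of replicate 2, outside the window. This word was in 12.4% of all windows and in 13% of those 5 kb away.

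The Efnb2 region 288.9 kb downstream held TGATTGAT, a word of PBX homeodomain proteins, at its summit. The word was 7 bp from the summit of replicate 1 and 12 bp from that of replicate 3. It was in 6.89% of the windows of all regions and in 0.639% of the windows 5 kb away. It overlapped the TCF/LEF word CTTTGAT, the site of the nuclear effectors of Wnt signalling, which was in 3.09% of the windows and in 3.19% of those 5 kb away. The upstream Efnb2 region held the TEAD word GGAATG, 54 bp and 62 bp from the summits of replicates 1 and 2. TEAD proteins act in the Hippo pathway, and this word was in 13.9% of the windows and 10.1% of those 5 kb away. The Epha4 region held none of the 13 words.

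The T-box word GGTGTGA was in 0 of the 5 windows and in none of the 5 whole regions, and it was in 3.66% of all windows against 2.98% of those 5 kb away. It was matched letter by letter, without mismatches. By a motif search, the paper reported a T-box motif in most of its consensus peaks, a measure unlike that of an exact word. The joined word was also in 0 of the 5, against 4.5% of the windows of all regions and 0.071% of those 5 kb away. The fewest mismatches to its 10 fixed bases were 2 in the Epha2 and Epha4 windows and 3 in each of the Efnb2 windows. This measure was chosen after the sequences were seen. A match with up to 2 mismatches was in 56% of the windows of all regions and in 18.2% of those 5 kb away, and one with up to 3 was in 84.2% and 73.9%. A stretch with the fewest mismatches was 56 bp from the summit at Epha2 and 60 bp at Epha4. At Efnb2 it was 13, 2 and 14 bp away in the regions 288.9 kb downstream, 20.9 kb downstream and 286.6 kb upstream. In the upstream window another stretch had as few mismatches, so these distances are not those of a single site. The other 6 words were in 0 of the 5 windows. These were the GATA word AGATAA (9.14% of all windows, 11.4% of those 5 kb away), the E-box word CAGCTG (18.3% and 9.65%), the forkhead word TGTTTAC (3.38% and 2.98%), the homeodomain word TAATTA (3.8% and 5.89%), the SOX word ACAATGG (2.39% and 3.76%) and the NK2 word TCAAGTG (5.06% and 4.19%). At these shares, 0 of 5 sets the sites apart from other regions for none of the words.

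The Epha2 sequence was made in part of repeated CATC words, as the capitals in its sequence show. Within 100 bp of the summit of replicate 2 it held 11 copies on both strands, where the median of all 711 windows was 2, and it ranked 33 for this count. The Epha4 window held 1 copy and the Efnb2 windows 4, 2 and 2. The number of different 4-letter words in the 201 bp was 100 at Epha2, 125 at Epha4 and between 116 and 122 at Efnb2, against a median of 119 over all regions. By fewest different words Epha2 ranked 154 of 711. The regions ranked next to Epha2 were of lower variety, with 6 different words and 53 CATC copies at Chd1 and 9 words and 50 copies at Laptm5. The regions ranked 4 to 6, near Trps1, Plekha4 and Pvrl1, had 128, 115 and 130 different words and up to 3 copies. Those ranked 7 to 10 had 135, 120, 124 and 27 different words and up to 7 copies. Under 100 different words were found in 21.5% of the windows of all regions and in 7.81% of those 5 kb away. The share was 30% among the 10 highest of the regions in all 3 lists. This cutoff equals the count at Epha2, which therefore falls just outside it. Both measures were chosen after the sequences were seen, and the part of repeats in the fold enrichment at Epha2 was not tested. The GC content was 56.2% at Epha2, 50.2% at Epha4 and between 45.3% and 53.2% at Efnb2, with medians of 50.7% over all regions and 44.8% in the windows 5 kb away.

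**Figure D4:**
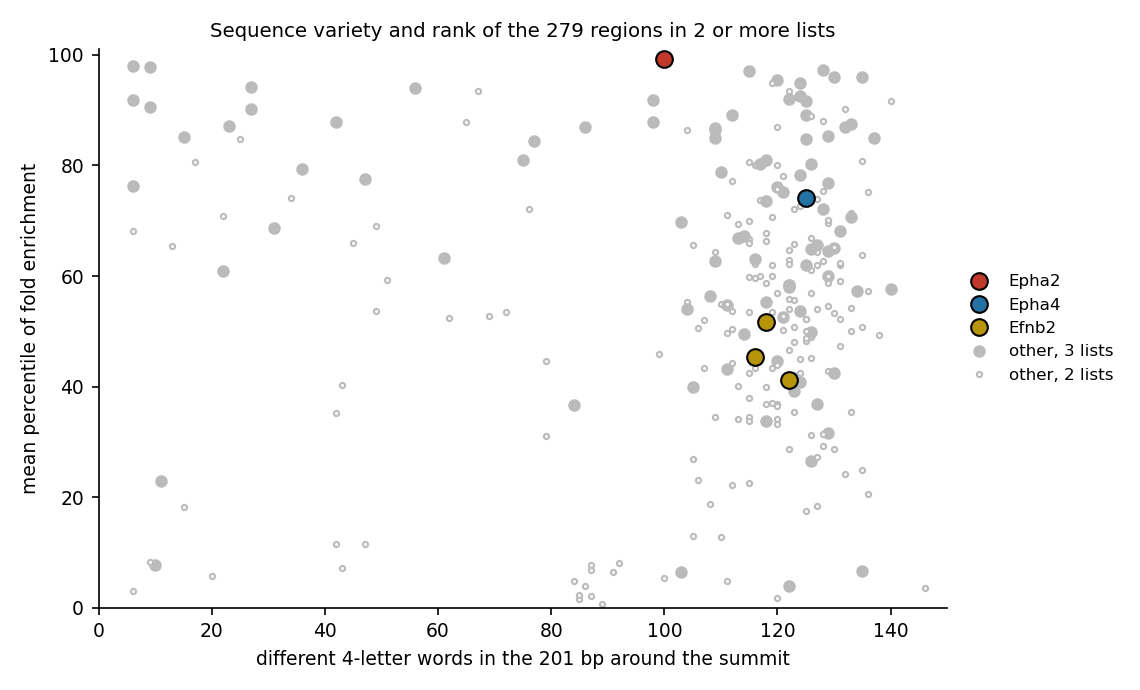
Mean percentile of fold enrichment (vertical axis) against the number of different 4-letter words in the 201 bp around the summit (horizontal axis), for the 279 regions in 2 or more lists, with the 5 sites in colour. Epha2 stands at the top with 100 different words, and the Epha4 and Efnb2 sites lie among the bulk of the regions at 116 to 125.

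The rest of the family was examined by the same distance. For its regions, and for those of the signalling genes below, genes outside these lists that may lie nearer are not given. Of the 22 Eph and ephrin genes of the annotation, 5 had a consensus region within 500 kb (22.7%), against 12.9% of protein-coding genes. The 3 loci above were chosen for such regions, so the other 19 genes are the ones to read, and 2 of these had one (10.5%). Measured from the start site it was 1 of the 19 (5.26%), against 12.4% of protein-coding genes, since the Epha6 region lies beyond the far end of a long gene. Epha6, a receptor of A-type ephrins, had a region in all 3 lists 109.6 kb downstream (chromosome 16, 59543310 to 59543752), with a fold enrichment of 6.77, 4.32 and 7.5 and a mean percentile of 49.8. Ephb4, the venous receptor for the Efnb2 protein, had a region in all 3 lists 451.3 kb upstream (chromosome 5, 137339618 to 137340054), with 5.16, 7.06 and 5.14 and a mean percentile of 40.8. Both regions had more lists than those of Epha4 and Efnb2, and their fold enrichment was of similar size to that at Efnb2. The Epha4 region was higher in replicate 2, at 9.24, and in replicate 3 its 6.73 lay between them. Its mean percentile of 74.2 was above both. Epha6 and Ephb4 were also the 2 of the other 19 genes (10.5%) with a region in all 3 lists within 500 kb, against 4.9% of protein-coding genes.

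Counting regions of any list, 6 of the other 19 genes had one (31.6%), against 27.1% of protein-coding genes. The 4 genes added were Epha8, Epha10, Ephb2 and Efnb3. Ephb2, a receptor of B-type ephrins, had a peak of replicate 2 within the gene and outside its exons (chromosome 4, 136332157 to 136332378, fold enrichment 6.09). A region 140.8 kb upstream of Epha8 and 261.6 kb upstream of Ephb2, had a peak in replicate 2 (8.21) and replicate 3 (6.07) but no consensus region. It was 1 of 62 of the 279 regions in 2 or more lists that overlapped no consensus region. Epha10 had peaks of replicate 2 alone at 54.6 kb and 495.1 kb with a fold enrichment of 5.86 and 7.03, and Efnb3, a B-type ephrin, had one at 480.5 kb with 5.33. Efna1, Efna3 and Efna4, which lie side by side and encode A-type ephrins, shared their nearest region at 973.2, 931.4 and 916.3 kb. Of the 8 ephrin genes 1 had a consensus region within 500 kb (12.5%), against the 12.9% of protein-coding genes above, and it was Efnb2, which was chosen for its regions.

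**Figure D5:**
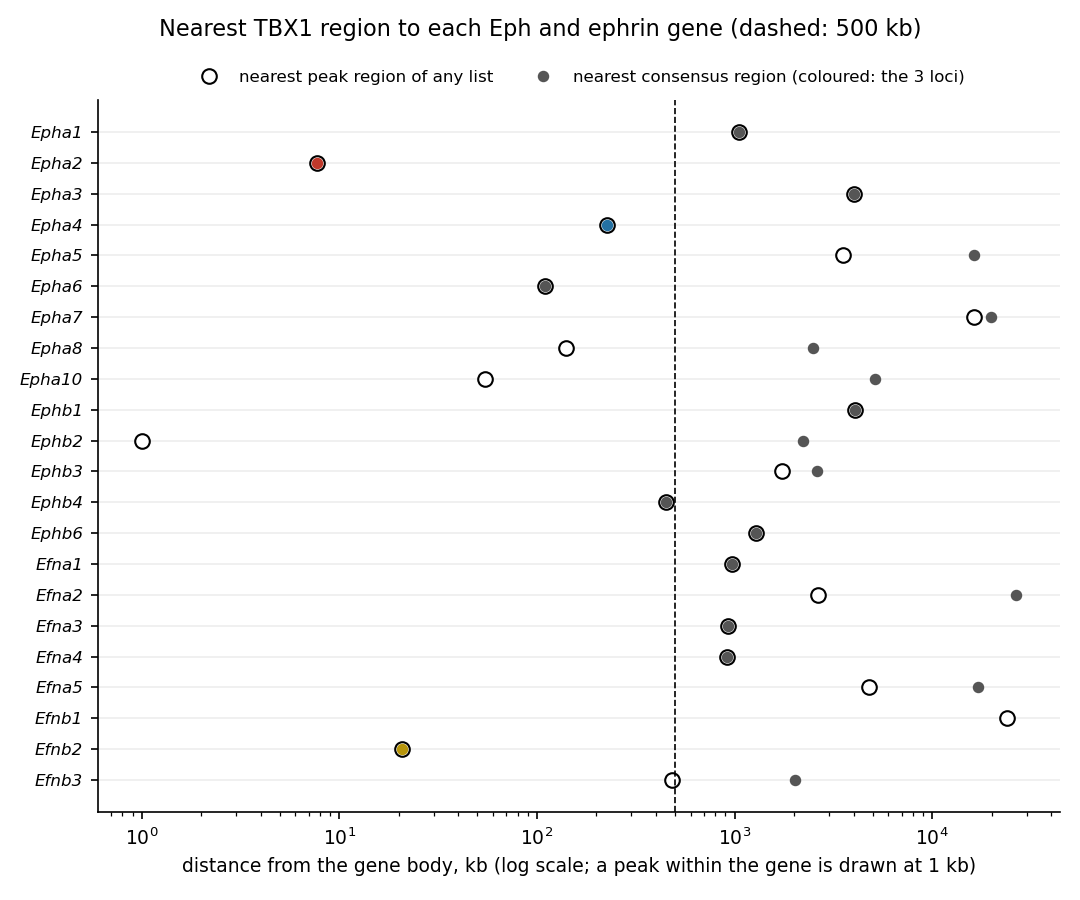
Distance in kb (horizontal axis, log scale) from the body of each of the 22 Eph and ephrin genes to the nearest region of any list (open circles) and to the nearest consensus region (filled circles). Epha2, Efnb2, Epha6, Epha4 and Ephb4 have a consensus region left of the dashed line at 500 kb, and Efnb1 has none on its chromosome.

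Genes that carry Eph signals inside the cell were taken from a list of 34. Of these, 8 had a consensus region within 500 kb (23.5%), against 12.9% of protein-coding genes, and 18 had a region of any list (52.9%), against 27.1%. These genes were longer, with a median gene body of 99.1 kb against 15.4 kb for all protein-coding genes, and a longer body takes in a wider span. Measured from the start site the number was 7 (20.6%), against 12.4%. One of the 8, Arhgef19, was there by the Epha2 region itself. Of the exchange factors on the list, the others were Arhgef5 at 131.3 kb, Vav3 at 454.2 kb and Kalrn, with a region within the gene. Crk, an adaptor protein, had a region at 112.0 kb with a fold enrichment of 8.28, 10.2 and 12.5, and the Vav3 region had 8.28, 11.0 and 8.37. The mean percentiles of these regions were 89.1 and 84.9, above those of the Epha4 and Efnb2 sites. Fyn, a Src-type kinase, had a consensus region at 93.9 kb, Pick1, which binds the tails of Eph receptors and ephrins, at 313.0 kb, and Adam10, a protease that cleaves ephrins, at 480.1 kb. The Pick1 region differed most between replicates, with 3.82, 21.5 and 7.89.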

How the data were processed

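TBX1 ChIP-seq was done by the authors on 3 biological replicates, with input as background. Adapters were trimmed, and reads were aligned to mm9 with Bowtie2 2.3.4, keeping unique reads without PCR duplicates. Peaks were called in each replicate with MACS2 2.1.2.1, a consensus of regions shared by replicates was made with bedtools 2.29, and blacklisted loci were then removed from it. The deposited values of a peak are its fold enrichment, a ratio over local background, and its q-value as −log10. Read numbers per peak are not known, and counting errors could therefore not be computed. The 3 deposited lists held 146, 646 and 296 peaks. Peak numbers in the paper differ from these for every replicate, so lists are named by the replicate number of the sample labels, ranks hold within the deposited lists, and the depth of each list is left unknown.

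Peaks sharing at least 1 bp were joined. Distances were taken from gene bodies of GENCODE vM1 on NCBIM37, which is mm9, and coordinates are 1-based. Words were searched on both strands with Python 3.11.15, and the functions were tested on simulated data. Genes were named where they were members, family or signalling genes with a consensus region within 500 kb, neighbours of a region in position or rank, or nearest to the 5 highest regions. Family genes with other regions, and Pvrl1, were named after their values were seen. The members and lists were chosen with earlier results of these data known.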

Additional observations from a re-analysis of the deposited data

How the results depend on the processing

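Of 87 alternative values, 64 stayed within the replicate spread or within 1.5 times the reported count. All are counts or percentiles of 1 condition and have no direction. Regions within 200 kb numbered 0 for Epha4 and 1 for Efnb2, in any list as in 2 or more, and within 1000 kb Epha2 had 2 in any list. With q-values under 1e-05, Efnb2 had 1 region in 2 or more lists. When a replicate was left out, regions in 2 or more lists numbered 0 to 1 for Epha4, with 0 without replicate 2 or replicate 3, and 1 for Efnb2 without any of the replicates 1, 2 or 3, since each region rests on a different pair. The highest percentile of any list was 100 for Epha2, and counting a list without a peak as 0 gave a mean of 49.4 for Epha4. Eph and ephrin genes with a region, the 3 chosen loci included, numbered 9 with any list, 3 with all 3 lists, 3 within 200 kb and 8 within 1000 kb. Without those loci they numbered 6, 2, 1 and 5 of 19 (31.6%, 10.5%, 5.26% and 26.3%), against 27.1%, 4.9%, 5.59% and 22.5% of protein-coding genes. Signalling genes numbered 18, 4 and 5 of 34 for any list, all 3 lists and 200 kb (52.9%, 11.8% and 14.7%), against the same first 3 shares. Arhgef19 is in each of these counts by the Epha2 region. The signalling genes are also longer, with a median of 99.1 kb against 15.4 kb. The MEIS-type word was in 0 sites within 50 bp of the summit and in 2 whole regions, and it was in 1 to 2 sites when a replicate was left out, with 2 without replicate 2. No paired analysis was possible because there was 1 group.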
